A study of Homo sapiens with 16 samples.

Results

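TPC1 is a human papillary thyroid carcinoma line that carries wild type p53, and the data described here are its transcriptome after 24 h of 10 µM nutlin, an inhibitor of MDM2, or of the 0.2% DMSO vehicle. The comparison holds 4 libraries of the 16 in the series, 2 per treatment, taken by their labelled line and treatment. Other libraries come from TPC1 cells given 25 µM of the PPM1D inhibitor GSK2830371 or both drugs, and from the same 4 treatments of K1, which is also a thyroid carcinoma line. The 8 TPC1 libraries were fitted together, so the other treatments contribute to the estimate of the spread and to the choice of genes tested. TPC1 columns are numbered 1 and 3 whereas the labels number these replicates 1 and 2, and the column numbers are kept here. Total counts were 36896529 and 72453522 in DMSO and 30789887 and 65115167 in nutlin. Pairs of values are given for libraries 1 and 3 in that order, in CPM, the read count of a gene relative to the TMM-scaled total of its library. Changes are log2 fold changes of nutlin against DMSO, followed by ± their standard error where one is given (n = 2 against 2). The labels do not say whether replicates came from separate cultures, so p values measure only the spread between these libraries. Because RNA was taken from whole cultures, fewer cells expressing a gene and less of its RNA per cell cannot be told apart.

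p53 is a transcription factor that MDM2 holds at low levels by marking it for degradation. Nutlin occupies the pocket of MDM2 that would bind p53, and the freed p53 binds response elements made of paired decamers near its target genes and raises their transcription. One target is *CDKN1A*, an inhibitor of cyclin dependent kinases, and with those kinases inhibited the RB family proteins stay bound to E2F factors. In this state the DREAM complex occupies the promoters of cell cycle genes, at E2F sites in genes of DNA replication and at the cell cycle genes homology region in genes of mitosis. TPC1 expresses *RET* through a fusion with *CCDC6*, a common driver of papillary thyroid carcinoma.

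TPC1 libraries held the thyroid transcription factors *PAX8* and *FOXE1* but little of the differentiated thyroid program. *PAX8* had 323 and 326 CPM in DMSO and 459 and 457 CPM in nutlin, and *FOXE1* had 25.3 and 22 CPM in DMSO and 27.5 and 25 CPM in nutlin. *NKX2-1* and *TSHR* were too low to test. The epithelial keratin *KRT8* had 448 and 516 CPM in DMSO and 431 and 469 CPM in nutlin, whereas *CDH1* was too low to test and *EPCAM* had 5 and 10 counts in DMSO and 0 and 6 in nutlin. *PTPRC*, *CD3E*, *TYROBP*, *PECAM1*, *VWF*, *COL1A2* and *DCN*, which mark leukocytes, endothelium and fibroblasts, were too low to test. Other listed markers of these cells were tested. Of 6 leukocyte markers tested 3 rose and 2 fell, and of 5 endothelial markers 1 rose and 0 fell. Of 4 fibroblast markers 0 rose and 2 fell, and *PDGFRB* was lowered. The 15 leukocyte markers together took 0.00354% and 0.00376% of counts in DMSO and 0.00776% and 0.00832% in nutlin, a difference carried by *CD68* and *TREM2*.

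Nutlin changed a large part of the expressed genes of TPC1. Of 25369 genes, 15273 were expressed above the minimum (over 0.1 CPM in at least 2 of the 8 TPC1 libraries), and of these 2671 (17.5%) rose and 2752 (18.0%) fell (edgeR quasi-likelihood test, adjusted p under 0.05 and a fold change above 1.5). The median log2 fold change over all genes tested was −0.00185. Changes had a median size of 1.12 among raised and 1.07 among lowered genes on the log2 scale. A change of more than 4-fold was found for 565 raised and 496 lowered genes, and one of more than 16-fold for 179 and 95. The 2 nutlin libraries lay entirely above or below the 2 DMSO libraries for 2670 of 2671 raised and 2751 of 2752 lowered genes. These genes were called from the same libraries, so the separation follows largely from the call and adds no evidence to it. Raised genes took 11.7% and 11.2% of all counts in DMSO and 24.7% and 24.2% in nutlin. Lowered genes went the other way, with 23.3% of counts in both DMSO libraries and 10.5% and 10.6% in nutlin.

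Expressed genes were changed at every level of expression. When genes were ordered by their mean level and split into 5 groups of equal size, the share raised was 16.6% in the lowest group (up to 1.04 CPM), 24.5% in the next (up to 10.5 CPM), and 16.2%, 14.0% and 16.1% in the higher groups. The share lowered was 10.0% in the lowest group and 18.2% to 21.8% in the others. From under 1 CPM to at least 5 CPM went 38 raised genes, and 19 lowered genes made the reverse step. Genes listed here as p53 targets, regulators or partners made up a small part of these calls, and the lists do not hold every known target. Of 107 listed genes, 104 were tested, 82 rose and 4 fell, which leaves 2589 of the 2671 raised genes and 2748 of the 2752 lowered ones outside these lists. The raised genes outside them took 11.3% and 10.8% of counts in DMSO and 22.1% and 21.6% in nutlin, and 518 of them rose by more than 4-fold.

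**Figure D1:**
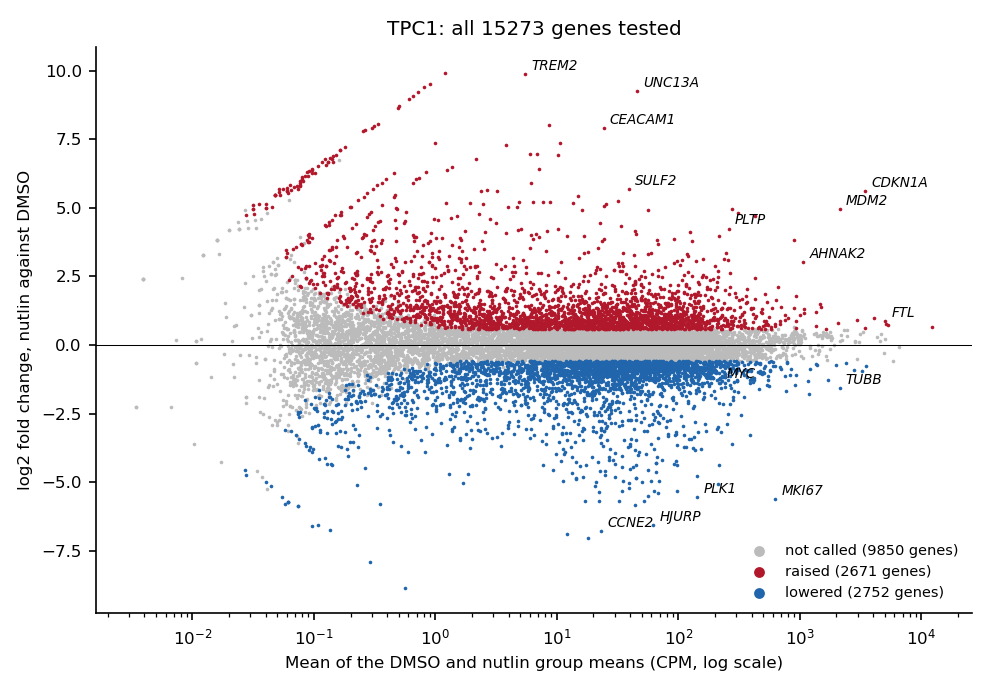
Each point is 1 of 15273 genes tested in TPC1, with the mean CPM of the DMSO and nutlin groups on a log scale on the x axis and the log2 fold change of nutlin against DMSO on the y axis. Red marks the 2671 raised genes, blue the 2752 lowered genes and grey the rest, and both colours run from the lowest to the highest levels. The straight lines of points at the far left are genes with no or a few counts in 1 of the groups.

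To describe the response by function, 75 lists of genes were drawn up, holding 1894 genes of which 1703 were tested. Each is described by its raised and lowered members, to be read against the 17.5% raised and 18.0% lowered over all genes tested, and by the median log2 fold change of its members where that median kept its sign under every processing alternative. In the plot of the lists the lowered side is led by DNA replication, mitosis, DNA repair and ribosome assembly, followed by repressive chromatin (70.0% lowered) and cytosolic heat shock chaperones (60.0%). The raised side is led by p53 targets and lysosomes. Autophagy genes (37.5% raised, none lowered) had a share near that of thyroid (41.7%), ephrin (40.0%) and potassium channel lists (40.0%), which also had lowered members.

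**Figure D2:**
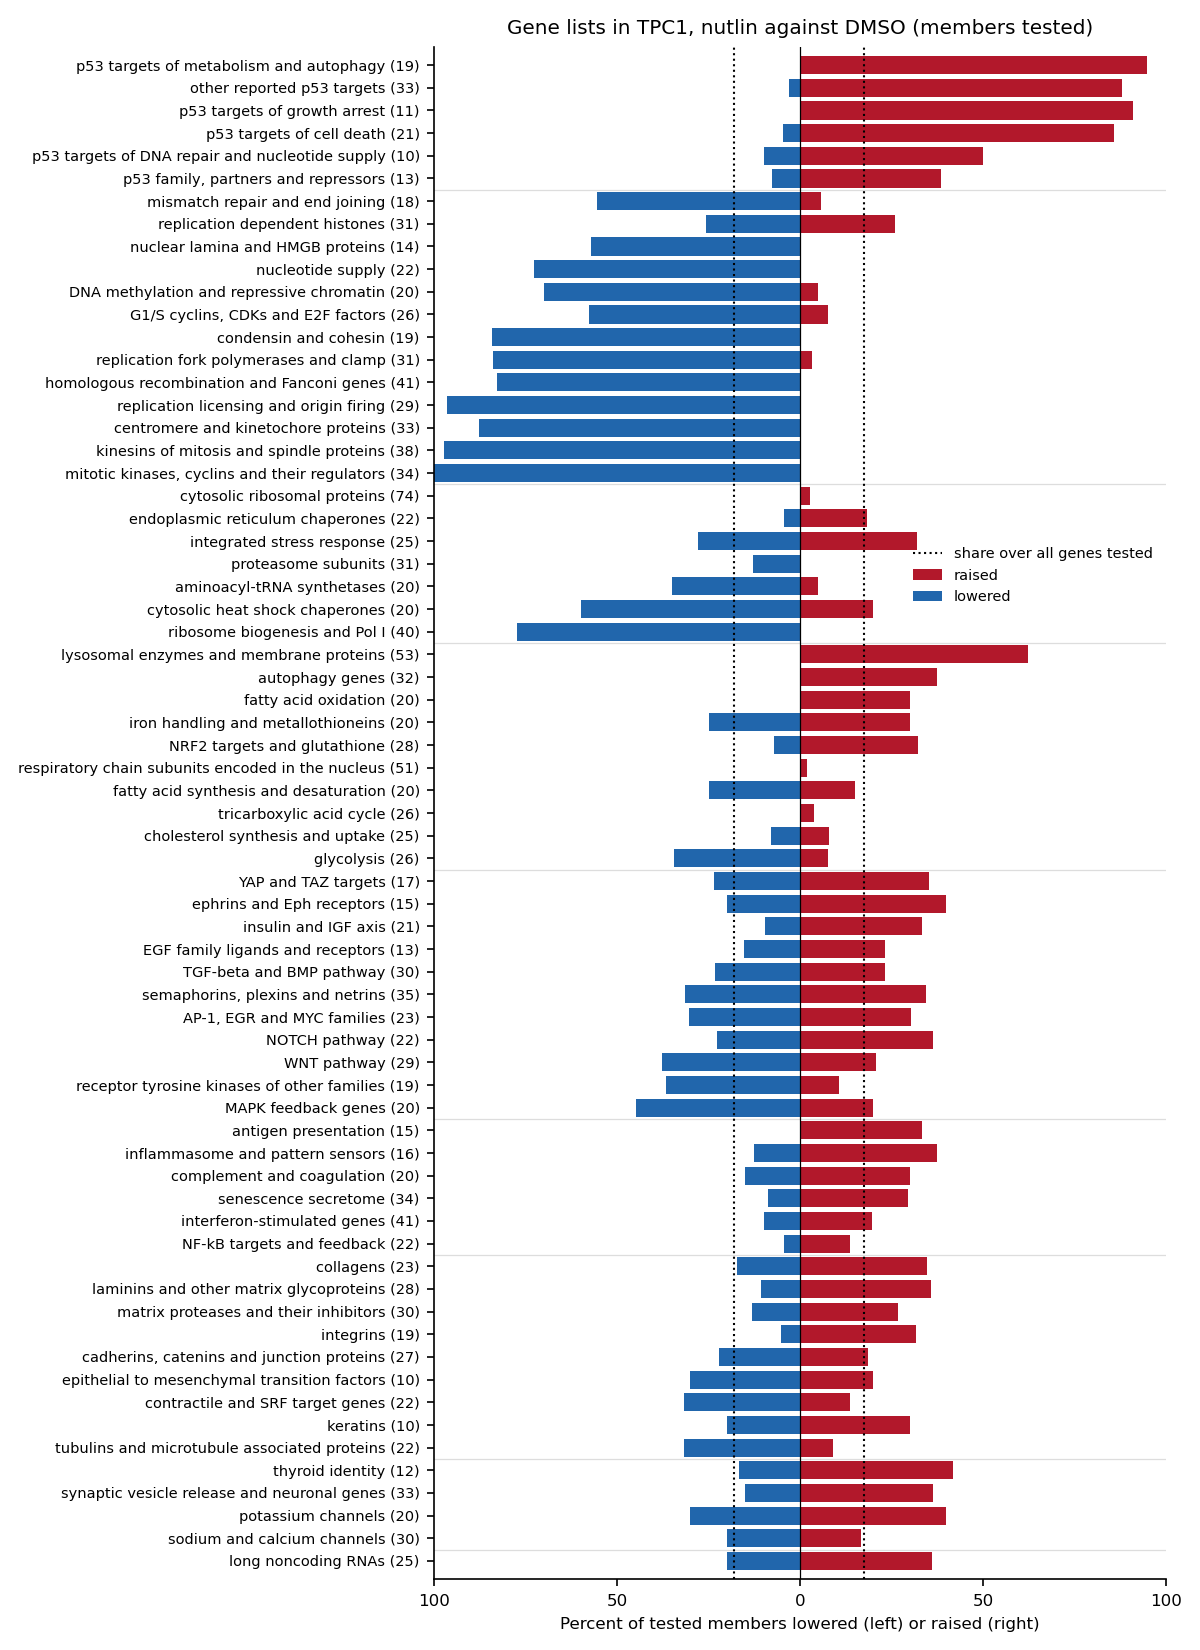
Bars give, for each gene list with at least 10 members tested (their number in parentheses), the percent of tested members that rose (red, to the right) and fell (blue, to the left) with nutlin in TPC1. Dotted lines mark the shares over all genes tested, 17.5% raised and 18.0% lowered. All 34 mitotic kinases and cyclins fell and 33 of 53 lysosomal genes rose.

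Among p53 and its regulators, the repressors *MDM2* and *PPM1D* rose. *MDM2* had 141 and 123 CPM in DMSO and 4128 and 4084 CPM in nutlin, a change of 4.96 ± 0.11 (adjusted p = 6.82e-09). *PPM1D*, the phosphatase that reverses damage signalling to p53, rose by 1.90 on the log2 scale. *MDM4*, the *MDM2* partner that binds the transactivation domain, was not called (0.04), and *USP7*, a deubiquitinase of MDM2 and p53, fell by 0.70. *TP73*, the p53 relative, rose by 2.61 from low levels, with 8 and 11 counts in DMSO and 41 and 56 in nutlin. Altogether 5 of the 13 tested genes of this list rose and 1 fell.

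Nearly all the tested targets of growth arrest rose, 10 of 11, with a median of 1.57 and *BTG1* as the exception. *CDKN1A* had 127 and 149 CPM in DMSO and 6683 and 6798 CPM in nutlin, a change of 5.61 ± 0.14 (adjusted p = 7.48e-09). *BTG2*, an antiproliferative regulator of mRNA decay, had 21 and 21.2 CPM in DMSO and 598 and 601 CPM in nutlin (4.83 ± 0.11, adjusted p = 6.82e-09). In both genes the lowest nutlin library was far above the highest DMSO library. *GADD45A* (2.91), *PLK3* (2.75) and *ZNF385A*, which steers p53 towards arrest genes (3.10), also rose, and so did *E2F7*, a repressor of E2F targets, by 0.91.

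Targets of cell death rose in 18 of 21 tested cases, with a median of 1.40. *BBC3*, which encodes the BH3-only protein PUMA, had 7.65 and 8.58 CPM in DMSO and 78.4 and 78.9 CPM in nutlin (3.27 ± 0.11, adjusted p = 3.51e-08), and *BAX* rose by 1.30. *FAS*, a death receptor, had 19 and 20.8 CPM in DMSO and 108 and 122 CPM in nutlin. *PMAIP1*, which encodes NOXA, differed by −0.12 and was not called, and *BID*, which links death receptors to mitochondria, fell by 0.94. Larger changes belonged to *TP53I3* (4.69), *TP53INP1* (4.95) and *FDXR*, a mitochondrial reductase (3.98).

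Of the 10 targets of DNA repair and nucleotide supply, 5 rose. These include *XPC* (2.23) and *DDB2* (2.05), which recognise damaged bases in nucleotide excision repair, and *RRM2B*, the p53-induced subunit of ribonucleotide reductase (2.50). *PCNA*, the sliding clamp, had 173 and 198 CPM in DMSO and 263 and 282 CPM in nutlin and stayed under the fold threshold (0.56, adjusted p = 0.0028). It passed it when DMSO replicate 3 or nutlin replicate 1 was left out, with 0.676 and 0.606. The targets of metabolism and autophagy had the highest median of the p53 lists, 2.54, with 18 of 19 raised. Among them *SESN1*, a brake on mTORC1, rose by 3.69, *C12orf5*, which encodes TIGAR, by 2.48, *PANK1*, of coenzyme A synthesis, by 3.33, and *PLTP*, the phospholipid transfer protein, had 25.7 and 26 CPM in DMSO and 496 and 487 CPM in nutlin (4.25). Of the other reported targets 29 of 33 rose, with a median of 1.98. *GDF15*, a secreted stress signal, had 107 and 127 CPM in DMSO and 1604 and 1723 CPM in nutlin (3.83).

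By the rule of letters used here, a p53 response element seldom lay close to a transcription start. The search covered 250 bases before to 50 after the start of each gene's canonical GENCODE transcript in GRCh37, on both strands, for 12845 promoters or 84.1% of the genes tested. A p53 response element was counted where 2 decamers at most 3 bases apart had no more than 2 mismatches in all. Each decamer had to hold the C and the G on either side of its 2 central bases, so mismatches were allowed only elsewhere. A looser rule would count more elements. It was found in 0.74% of all promoters, 1.63% of promoters of raised genes, 3.46% of those raised over 4-fold, and 0.585% of those of lowered genes. The 3 promoters below, of targets that rose, are shown from upstream to downstream of the gene with the element in capitals. They lie at chr15:89164487-89164570, plus strand (*AEN*, an apoptosis nuclease), chr10:91405000-91405082, minus strand (*PANK1*) and chr1:27668263-27668381, plus strand (*SYTL1*, of vesicle traffic), all in GRCh37. A match is a description of the letters, and no binding was measured here.
*AEN*: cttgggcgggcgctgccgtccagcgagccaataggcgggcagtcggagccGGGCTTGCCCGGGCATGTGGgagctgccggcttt
*PANK1*: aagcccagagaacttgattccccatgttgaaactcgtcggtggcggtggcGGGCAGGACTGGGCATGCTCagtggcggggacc
*SYTL1*: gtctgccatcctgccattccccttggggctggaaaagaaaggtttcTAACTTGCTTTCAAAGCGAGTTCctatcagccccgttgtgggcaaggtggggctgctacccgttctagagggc

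Regulators of the step from G1 into S phase fell in 15 of 26 cases and rose in 2, *CCND2* and *E2F7*, with a median of −1.25. Members of this list ranged from −6.89 to 6.38, so the largest increase was about as far from 0 as the largest decrease. *CCNE2*, the cyclin E partner of *CDK2*, had 46.4 and 44.5 CPM in DMSO and 0.43 and 0.406 CPM in nutlin (−6.77 ± 0.26, adjusted p = 5.55e-08). *E2F1*, which activates replication genes, had 51.5 and 50.2 CPM in DMSO and 3.6 and 2.28 CPM in nutlin (−4.18), and *E2F2* had 26.2 and 21.9 CPM in DMSO and 0.132 and 0.234 CPM in nutlin (−6.89). *CCND1*, *CDK4* and *CDK6*, which act earlier in G1, were not called (0.17, −0.51 and −0.38). The CDK inhibitors moved both ways, with 3 of 8 raised and 3 lowered. Besides *CDKN1A*, the raised ones were *CDKN1C*, which encodes p57 (3.08), and *CDKN2B*, which encodes p15 and had 8.75 and 8.18 CPM in DMSO and 64.3 and 60.0 CPM in nutlin (2.88). *CDKN2C* fell by 2.95 and *CDKN1B*, which encodes p27, had −0.46 and was not called. *CDKN2A* fell by 0.60, a call lost without DMSO replicate 3 or nutlin replicate 1. Of the 9 genes of the DREAM and MuvB complex and its activators, 7 fell and 1 rose. *MYBL2* had 264 and 289 CPM in DMSO and 10.2 and 9.88 CPM in nutlin (−4.79) and *FOXM1*, the activator of late cell cycle genes, had 259 and 262 CPM in DMSO and 29 and 28.3 CPM in nutlin (−3.18).

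Nearly all listed genes of DNA replication fell. Of 29 genes of origin licensing and firing, 28 fell and *ORC4* alone was not called (−0.18), with a median of −2.42. The replicative helicase subunit *MCM2* had 239 and 236 CPM in DMSO and 35.8 and 32.3 CPM in nutlin (−2.80 ± 0.12, adjusted p = 1.42e-07), *CDC6*, which loads the helicase, had 83.9 and 87.9 CPM in DMSO and 3.01 and 3.0 CPM in nutlin (−4.84), and *CDT1* had 83.6 and 90.4 CPM in DMSO and 19 and 18.9 CPM in nutlin (−2.20). *MCM10* (−5.32) and *TICRR* (−4.97), which act at origin firing, fell further. Fork polymerases and clamp factors fell in 26 of 31 cases with a median of −1.93. *POLA1*, the catalytic subunit of DNA polymerase alpha, had 55.6 and 55.4 CPM in DMSO and 10.2 and 10.3 CPM in nutlin (−2.43), *CLSPN*, the checkpoint adaptor claspin, fell by 5.19, and *POLD4*, a small subunit of polymerase delta, was the 1 member raised (1.09). Nucleotide supply fell in 16 of 22 cases with a median of −1.09. *RRM2*, the S phase subunit of ribonucleotide reductase, had 396 and 422 CPM in DMSO and 12.9 and 11.7 CPM in nutlin (−5.06), in contrast to the rise of *RRM2B*, and *TYMS* fell by 0.96.

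Mitotic kinases and kinesins had the lowest medians of the 75 lists. All 34 mitotic kinases, cyclins and their regulators fell, with a median of −4.0, and they took 0.422% and 0.438% of counts in DMSO and 0.0476% and 0.0494% in nutlin. *PLK1*, the polo kinase of mitotic entry, had 269 and 291 CPM in DMSO and 6.31 and 5.84 CPM in nutlin (−5.53 ± 0.11, adjusted p = 6.82e-09). *CCNB1*, the cyclin of *CDK1*, had 272 and 301 CPM in DMSO and 20.2 and 21.2 CPM in nutlin (−3.79), and *NEK2*, a kinase of centrosome separation, had 65.1 and 61.4 CPM in DMSO and 1.06 and 1.34 CPM in nutlin (−5.67). In each the DMSO and nutlin libraries were far apart and the 2 libraries of a group close together. Kinesins and spindle proteins fell in 37 of 38 cases with a median of −3.67, and *KIFC3* was not called (0.31). *KIF11*, the motor that pushes spindle poles apart, had 216 and 199.8 CPM in DMSO and 16.6 and 14.7 CPM in nutlin (−3.73), while *KIF18B* (−5.69) and *ASPM* (−5.33) fell further. Centromere and kinetochore proteins fell in 29 of 33 cases with a median of −2.53. *HJURP*, the chaperone that deposits the centromeric histone, had 119 and 126 CPM in DMSO and 1.35 and 1.26 CPM in nutlin (−6.55 ± 0.16, adjusted p = 7.28e-09), and its client *CENPA* had 31.2 and 36 CPM in DMSO and 0.661 and 0.656 CPM in nutlin (−5.67). Condensin and cohesin fell in 16 of 19 cases with a median of −1.60, and among them *NCAPG*, a condensin subunit, had 127 and 125 CPM in DMSO and 4.89 and 5.29 CPM in nutlin (−4.62). *MKI67*, the proliferation antigen, had 1416 and 1049 CPM in DMSO and 26.7 and 23.4 CPM in nutlin (−5.62).

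The promoters of these lists differ in the motifs they hold. The cell cycle genes homology region, TTTGAA on either strand, was in 9.15% of all 12845 promoters and in 8.12% of those of raised genes. It was in 13.6% of promoters of lowered genes and in 29.1% of those lowered over 4-fold. In the mitotic kinases it was in 25 of 33 promoters (75.8%), in kinesins 28 of 37 (75.7%), in condensin and cohesin 8 of 16 and in kinetochore genes 13 of 30 (43.3%), but in licensing genes 1 of 26 (3.85%). The E2F site, TTTGGCGC or TTTCGCGC on either strand, showed the other order, with 1.81% of all promoters, 9 of 26 licensing genes (34.6%), 5 of 31 fork genes (16.1%) and 6.06% of mitotic kinases. The CCAAT box, CCAAT on either strand, was in 35.6% of all promoters, 78.8% of those of mitotic kinases and 57.7% of those of licensing genes. It is not particular to lowered lists. It was in 90.9% of promoters of endoplasmic reticulum chaperones and 78.3% of those of cholesterol synthesis and uptake, lists with few lowered members. These shares are descriptions, and absence of the letters says nothing of a factor.

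The sequences below run up to the transcription start for the mitotic genes and to within 80 bases of it for *POLA1*, and were picked to show where the motif sits. Capitals mark the cell cycle genes homology region in *PLK1* (chr16:23690131-23690209, plus strand), *KIF11* (chr10:94352809-94352886, plus strand, where the letters are TTCAAA, the motif on the other strand), *CENPA* (chr2:27008856-27008923, plus strand) and *NCAPG* (chr4:17812517-17812601, plus strand), and the E2F site on the other strand in *POLA1* (chrX:24711848-24711955, plus strand), all in GRCh37. In *PLK1* and *KIF11* a CCAAT box (read as CCAAT or ATTGG) stands upstream of the capitals.
*PLK1*: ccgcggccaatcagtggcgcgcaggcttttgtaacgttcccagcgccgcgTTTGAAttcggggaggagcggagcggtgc
*KIF11*: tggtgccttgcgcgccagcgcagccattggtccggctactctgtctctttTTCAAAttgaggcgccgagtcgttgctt
*CENPA*: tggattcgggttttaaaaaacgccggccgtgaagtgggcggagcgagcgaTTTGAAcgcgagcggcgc
*NCAPG*: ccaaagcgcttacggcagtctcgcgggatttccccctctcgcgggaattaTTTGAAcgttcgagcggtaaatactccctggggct
*POLA1*: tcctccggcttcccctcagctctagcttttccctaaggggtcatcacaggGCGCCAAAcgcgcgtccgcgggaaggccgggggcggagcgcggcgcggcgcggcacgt

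**Figure D3:**
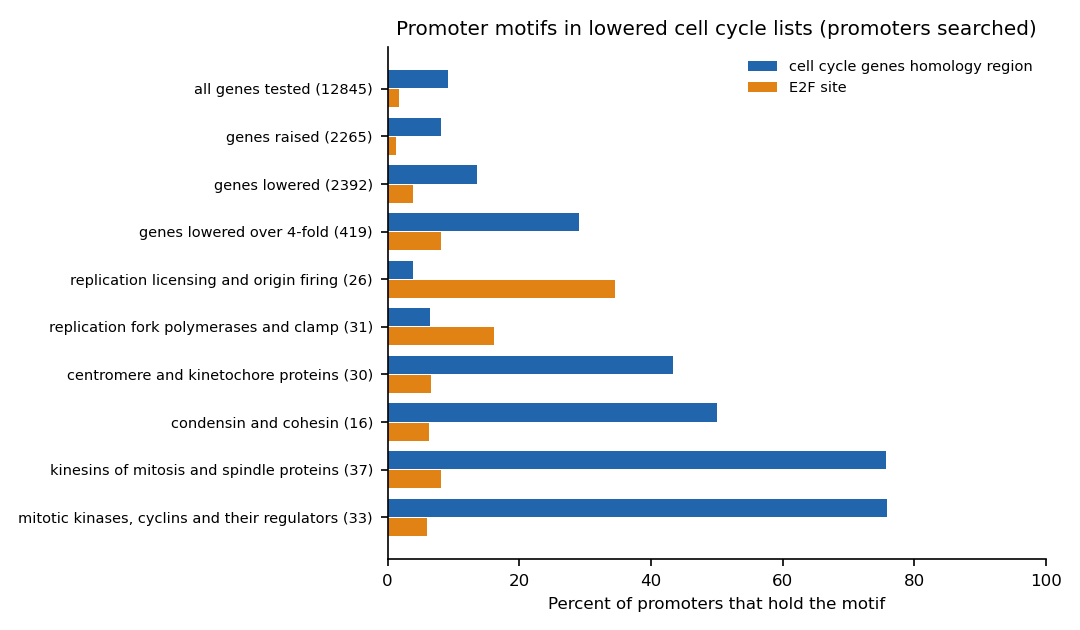
Bars give the percent of promoters (250 bases before to 50 after the start, number searched in parentheses) that hold the cell cycle genes homology region (blue) or the E2F site (orange). The first is in 75.8% of promoters of mitotic kinases and 3.85% of those of licensing genes, and the second in 6.06% and 34.6%.

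DNA repair by homologous recombination and the Fanconi pathway fell with replication, 34 of 41 genes with a median of −2.03. *BRCA1* had 77.1 and 64.3 CPM in DMSO and 10.9 and 10.5 CPM in nutlin (−2.72). *EXO1*, a resection nuclease, fell by 4.97 and *BARD1*, the partner of *BRCA1*, by 4.55. Mismatch repair and end joining moved less, with 10 of 18 lowered, 1 raised and a median of −0.647. *MSH6*, which takes part in recognising mismatches, fell (−2.76), as did *PARP1* (−1.01).

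Chromatin and nuclear envelope genes fell too. DNA methylation and repressive chromatin genes fell in 14 of 20 cases with a median of −1.19. *DNMT1*, the maintenance methyltransferase, had 373 and 331 CPM in DMSO and 83.1 and 78.6 CPM in nutlin (−2.12 ± 0.09, adjusted p = 1.17e-07), and its guide *UHRF1* fell by 3.83. The polycomb methyltransferase *EZH2* had 44 and 47.1 CPM in DMSO and 7.5 and 8.01 CPM in nutlin (−2.55), whereas its relative *EZH1*, which is known from cells out of cycle, had 18 and 18.7 CPM in DMSO and 44.5 and 40.6 CPM in nutlin and was the 1 member raised (1.21). Nuclear lamina and HMGB genes fell in 8 of 14 cases with a median of −1.08. *LMNB1*, whose loss is a known mark of senescent cells, had 102 and 101 CPM in DMSO and 5.85 and 6.8 CPM in nutlin (−3.98), and *HMGB2*, a chromatin architecture protein, had 219 and 245 CPM in DMSO and 21.2 and 21.7 CPM in nutlin (−3.44). Replication dependent histones, whose mRNAs mostly lack the poly(A) tail by which these libraries were made, took under 0.01% of counts, and of 31 tested 8 rose and 8 fell. The raised ones that passed 5 CPM include *HIST1H2BD* (1.87) and *HIST2H2BE* (2.08).

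Genes for making ribosomes fell, and few of those for the ribosome itself were called. Ribosome biogenesis and RNA polymerase I genes fell in 31 of 40 cases and rose in none, with a median of −0.864. *NCL*, the nucleolar protein nucleolin, had 1635 and 1707 CPM in DMSO and 648 and 686 CPM in nutlin (−1.33 ± 0.09, adjusted p = 2.88e-06), and *DKC1*, the pseudouridine synthase of ribosomal RNA, fell by 1.64. Cytosolic ribosomal proteins had a median of 0.289, and 2 of 74 rose, *RPS19* (0.91) and *RPL13A* (0.63, a call lost without DMSO replicate 1 or nutlin replicate 1). Their share of counts was 6.23% and 7.50% in DMSO and 8.21% and 8.54% in nutlin. *RPLP0*, of the ribosomal stalk, had 2384 and 3029 CPM in DMSO and 3390.0 and 3755 CPM in nutlin, groups that do not overlap, yet stayed under 1.5-fold (0.40, adjusted p = 0.0473). It was called when DMSO replicate 3 was left out (0.604).

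Chaperones of the cytosol and of the endoplasmic reticulum gave different counts. Heat shock chaperones outside the endoplasmic reticulum fell in 12 of 20 cases and rose in 4, with a median of −0.679. *HSPA8*, the constitutive HSP70, had 3475 and 3876 CPM in DMSO and 1872 and 1999 CPM in nutlin (−0.92 ± 0.10, adjusted p = 5.25e-05), the mitochondrial chaperonin *HSPD1* fell by 1.13, and *STIP1*, which joins HSP70 and HSP90, by 1.32. *HSPA4L* (1.98) and *HSPB8* (0.79) rose. Of 22 endoplasmic reticulum chaperones 4 rose and 1 fell, with *CALR*, which folds glycoproteins, at 1424 and 1601 CPM in DMSO and 2635 and 2648 CPM in nutlin (0.80) and *HSPA5* not called (−0.41). Proteasome subunits fell in 4 of 31 cases, with a median of −0.303. Aminoacyl-tRNA synthetases fell in 7 of 20 cases and rose in 1, *SARS* (0.89), with a median of −0.428.

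The integrated stress response, whose central factor *ATF4* is controlled mainly at translation, split into 8 raised and 7 lowered of 25 genes. *ATF4* mRNA had 616 and 693 CPM in DMSO and 476 and 499 CPM in nutlin and was not called (−0.42). Raised members were *SESN2* (2.54), *NUPR1* (2.13), *ATF3* (1.69), *DDIT3* (1.62) and *DDIT4*, an mTORC1 inhibitor (1.35). Lowered were *CHAC1*, a glutathione degrading enzyme (−1.44), *STC2* (−2.41), *PHGDH*, of serine synthesis (−0.98) and *SLC7A11*, the cystine transporter (−1.10).

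Lysosomal genes gave more raised members than any other list by number. By share they had 62.3%, below several p53 target lists, which reached 94.7%. Of 53 tested, 33 rose and none fell, with a median of 0.847, and their share of counts went from 0.718% and 0.725% in DMSO to 1.23% and 1.25% in nutlin. *CTSD*, the protease cathepsin D, had 598 and 651 CPM in DMSO and 1527 and 1585 CPM in nutlin (1.32 ± 0.08, adjusted p = 1.24e-06). *GRN*, which encodes progranulin, had 203 and 205 CPM in DMSO and 637 and 662 CPM in nutlin (1.67), the peptidase *TPP1* had 112 and 112 CPM in DMSO and 407 and 417 CPM in nutlin (1.88), and *LAMP1*, of the lysosomal membrane, had 380.4 and 359.8 CPM in DMSO and 761 and 737 CPM in nutlin (1.02). *FUCA1*, an alpha-fucosidase that is also a listed p53 target, rose by 2.74. The transcription factors *TFEB* and *TFE3*, known to drive lysosomal genes, were not called (0.11 and 0.26), and *MITF* had −0.21. Autophagy genes rose in 12 of 32 cases and fell in none, with a median of 0.40. *SQSTM1*, the cargo receptor p62, had 781 and 858 CPM in DMSO and 1831 and 1928 CPM in nutlin (1.20), *OPTN*, another receptor, rose by 1.34, and *MAP1LC3B*, which coats the autophagosome, was not called (0.45).

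Metabolic lists differed in how many of their members were called. In glycolysis 9 of 26 genes fell and 2 rose, with a median of −0.345. *HK2*, the hexokinase of proliferating cells, had 159 and 132 CPM in DMSO and 35.6 and 36.2 CPM in nutlin (−2.02 ± 0.11, adjusted p = 5.64e-07), and the lactate transporter *SLC16A1* fell by 1.09. *LDHA* had 2257 and 2742 CPM in DMSO and 1428 and 1578 CPM in nutlin and fell by 0.73, a call lost without DMSO replicate 3 (−0.57) or nutlin replicate 1 (−0.664). None of the 7 pentose phosphate genes was called. In the tricarboxylic acid cycle 1 of 26 genes was called, *IDH2*, and among nuclear genes of the respiratory chain 1 of 51, *NDUFS5*. Both rose, and both calls were lost without DMSO replicate 1. Cholesterol synthesis and uptake had 2 raised and 2 lowered of 25, with *HMGCS1*, an early enzyme, not called (−0.19). Cholesterol efflux genes rose in 4 of 9 cases, led by *PLTP*, and the transporter *ABCA1* had 201 and 125 CPM in DMSO and 618 and 509 CPM in nutlin (1.79). Fatty acid synthesis fell in 5 of 20 cases and rose in 3. *SCD*, which desaturates stearate, had 613 and 562 CPM in DMSO and 237 and 228 CPM in nutlin (−1.34) and *FADS3*, another desaturase family member, rose by 2.21. Fatty acid oxidation rose in 6 of 20 cases and fell in none, with a median of 0.351, and *CPT2*, of mitochondrial uptake, rose by 0.99.

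Antioxidant and iron genes gave mixed counts with some large members. Of 28 NRF2 targets and glutathione genes, 9 rose and 2 fell, and the standard NRF2 target *NQO1* was not called (0.30). *HMOX1*, which degrades heme, had 128 and 146 CPM in DMSO and 448 and 467 CPM in nutlin (1.74). The ferritin chains *FTL*, with 3156 and 3955 CPM in DMSO and 6334 and 6792 CPM in nutlin, and *FTH1*, with 2447 and 3095 CPM in DMSO and 5168 and 5696 CPM in nutlin, rose by 0.88 and 0.97. *TFRC*, the transferrin receptor that brings iron in, had 359 and 309 CPM in DMSO and 203 and 214 CPM in nutlin and fell by 0.68, a call lost without DMSO replicate 1 (−0.57). In all 6 of 20 iron and metallothionein genes rose and 5 fell. *GPX1*, a peroxide reducing selenoprotein outside the lists, had 225 and 270.5 CPM in DMSO and 1054 and 1114 CPM in nutlin (2.13).

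**Figure D4:**
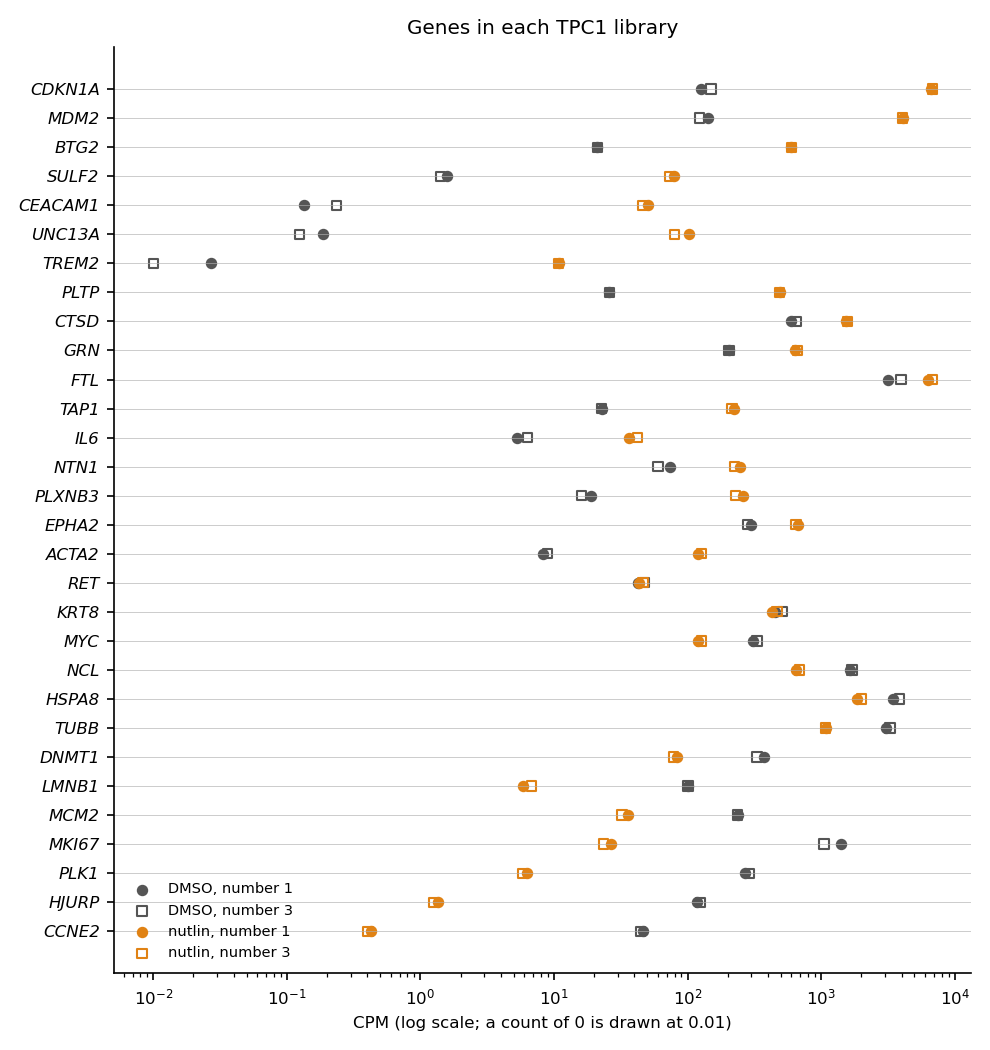
Points give the CPM (log scale) of selected genes in each TPC1 library, grey for DMSO and orange for nutlin, circles for library 1 and squares for library 3. For most genes drawn the 4 points fall into a DMSO pair and a nutlin pair that are apart, while *RET* and *KRT8* overlap. A library with a count of 0 (*TREM2* in DMSO) is drawn at 0.01 CPM.

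Growth factor signalling showed no single direction. *RET* had 42.8 and 47.7 CPM in DMSO and 43.4 and 46.4 CPM in nutlin and was not called (−0.01), *MET* had 0.18, and the EGF receptor had 197 and 124 CPM in DMSO and 229 and 187 CPM in nutlin, with overlapping groups (0.38, and 0.747 with a call when DMSO replicate 1 was left out). Of 19 other receptor tyrosine kinases 2 rose, *IGF1R* (1.10) and *DDR1*, a collagen receptor (1.68), and 7 fell, among them *TYRO3* (−1.64) and *FGFR4* (−1.35). Of 13 EGF family genes 3 rose, including the ligand *NRG1* with 16.1 and 14 CPM in DMSO and 74.6 and 71.5 CPM in nutlin (2.28), and 2 fell, including the feedback inhibitor *ERRFI1* (−0.91). MAPK feedback genes fell in 9 of 20 cases and rose in 4. *SPRY4*, an inhibitor of the pathway, fell by 0.94 and the ETS factors *ETV4* and *ETV5* by 1.05 and 1.0, whereas *DUSP1* and *DUSP5*, phosphatases of the kinases, rose by 1.01 and 0.96. Insulin and IGF genes rose in 7 of 21 cases and fell in 2, with *PIK3IP1*, a brake on PI3K, at 2.63 and 3.42 CPM in DMSO and 28 and 27.2 CPM in nutlin (3.16).

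*MYC* fell while several of its antagonists rose. *MYC* had 307 and 331 CPM in DMSO and 120.0 and 127 CPM in nutlin (−1.37 ± 0.10, adjusted p = 3.34e-06). *MXD1* (1.70), *MXD4* (1.86) and *MXI1* (0.71), which compete with it for *MAX*, rose, but *MXD3*, a family member known from dividing cells, fell by 3.25. *FOSL1*, the AP-1 subunit, had 532 and 566 CPM in DMSO and 225 and 231 CPM in nutlin (−1.27), and *JUN* was not called (−0.13). In the AP-1, EGR and *MYC* families 7 of 23 rose and 7 fell.

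Developmental pathways had members that moved far in both directions. In the WNT pathway 11 of 29 fell and 6 rose, with a median of −0.212, and the receptor *FZD8* (−2.45) and the factor *LEF1* (−1.95) fell. In NOTCH 8 of 22 rose and 5 fell. *NOTCH3* had 31.7 and 24.6 CPM in DMSO and 124 and 105 CPM in nutlin (2.03), the ligand *JAG1* rose by 1.36, and *HES2* went from 1.93 and 1.39 to 66.7 and 57.2 CPM (5.27), whereas the standard target *HES1* was not called (0.42). *NOTCH1* rose by 0.69, a call lost without DMSO replicate 3 (0.48) or nutlin replicate 1 (0.546). In TGF-beta and BMP 7 of 30 rose and 7 fell, with *TGFBR1*, the receptor, up by 1.45 and *TGFB2*, a ligand, down at −1.32. Of 17 YAP and TAZ targets 6 rose and 4 fell, with a median of 0.568. *CYR61* had 358 and 393 CPM in DMSO and 664 and 702 CPM in nutlin (0.86) and *CTGF*, the other standard target, was not called (−0.39).

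Guidance genes were changed often, in both directions. Of 35 semaphorins, plexins and netrins 12 rose and 11 fell. *PLXNB3*, a semaphorin receptor, had 18.9 and 16 CPM in DMSO and 259 and 228 CPM in nutlin (3.81 ± 0.14, adjusted p = 4.15e-08), and the ligand *NTN1* had 74.3 and 60.1 CPM in DMSO and 245 and 226 CPM in nutlin (1.81) while its receptors *UNC5B* and *UNC5C* moved apart (1.70 and −1.09). Of 15 ephrins and Eph receptors 6 rose and 3 fell. *EPHA2* had 300.0 and 281 CPM in DMSO and 676 and 647 CPM in nutlin (1.19), *EFNB1* rose by 2.85 and *EFNB2* fell by 2.0.

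Inflammatory genes rose in part. Of 34 tested cytokines and growth factors of the senescence secretome 10 rose and 3 fell, with a median of 0.311. *IL6* had 5.26 and 6.31 CPM in DMSO and 36.5 and 42.4 CPM in nutlin (2.76 ± 0.13, adjusted p = 1.92e-07), and the chemokine *CCL2* had 7.25 and 8.92 CPM in DMSO and 36.4 and 39.1 CPM in nutlin (2.21). *CXCL8*, by contrast, had 6.55 and 7.02 CPM in DMSO and 3.24 and 4.12 CPM in nutlin and fell by 0.86, and *CXCL1* was not called (0.19). Of 22 NF-kB targets 3 rose and 1 fell, and the feedback inhibitors *NFKBIA* (0.04) and *TNFAIP3* (0.40) were not called. Interferon-stimulated genes rose in 8 of 41 cases (19.5%) and fell in 4, with a median of 0.147. Their share raised was near the 17.5% over all genes tested, and members ranged from −2.0 to 5.91. *STAT2* (1.67), *IRF9* (1.04), *IFI16* (1.18) and *ISG15* (1.12) rose. *TRIM22*, an antiviral ligase that is also a p53 target, went from 0.349 and 0.11 to 12.9 and 10.9 CPM (5.91).

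Antigen presentation rose in 5 of 15 cases and fell in none, with a median of 0.509. *TAP1*, the peptide transporter, had 23 and 22.7 CPM in DMSO and 222 and 216 CPM in nutlin (3.26 ± 0.08, adjusted p = 7.99e-09). The class I light chain *B2M* was not called (0.44), although it passed the threshold when DMSO replicate 3 was left out (0.591). Complement and coagulation genes rose in 6 of 20 cases and fell in 3, with *C3* at 138 and 122 CPM in DMSO and 322 and 320.1 CPM in nutlin (1.31). Of 16 inflammasome and pattern sensor genes 6 rose and 2 fell. *NLRP1*, a sensor, rose by 2.26, *TLR3* by 1.91 and *TMEM173*, which encodes STING, by 0.88, while *MB21D1*, which encodes cGAS, fell by 1.36.

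More of the listed matrix genes rose than fell. Of 23 collagens 8 rose and 4 fell, with *COL7A1* (33.9 and 23 CPM in DMSO and 113 and 85.4 CPM in nutlin) and *COL4A5* (2.0) among the raised. Of 28 laminins and matrix glycoproteins 10 rose and 3 fell. Agrin, from *AGRN*, had 960.1 and 698 CPM in DMSO and 2333 and 2032 CPM in nutlin (1.40), and *FBN2* rose by 1.71. *FN1*, fibronectin, had 4553 and 3065 CPM in DMSO and 7009.9 and 5915 CPM in nutlin (0.76, adjusted p = 0.027), a call lost without DMSO replicate 3 (0.53) or nutlin replicate 1 (0.635). *THBS1*, the angiogenesis inhibitor thrombospondin 1, had 2704 and 2147 CPM in DMSO and 1045 and 963 CPM in nutlin (−1.27). Integrins rose in 6 of 19 cases and fell in 1, *ITGB3* (−0.94). Matrix proteases and their inhibitors rose in 8 of 30 cases and fell in 4, with *MMP14* at 787 and 737 CPM in DMSO and 2194 and 2137 CPM in nutlin (1.51) and *ADAMTS7* at 5.99 and 4.42 CPM and 87.7 and 81.5 CPM (4.05).

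In the cytoskeleton tubulins fell in 7 of 22 cases and rose in 2, with a median of −0.327. *TUBB* had 3039.8 and 3286 CPM in DMSO and 1079 and 1075 CPM in nutlin (−1.55 ± 0.08, adjusted p = 5.29e-07) and *TUBA1B* fell by 1.80, while *TUBA1A*, a near copy in sequence, had 46.1 and 55.7 CPM in DMSO and 105 and 113 CPM in nutlin (1.09). Reads that fit several near-identical tubulin genes could be lost from the counts or given to the wrong gene, since alignments of low mapping quality were removed. *ACTA2*, the smooth muscle actin, had 8.32 and 8.97 CPM in DMSO and 121 and 128 CPM in nutlin (3.84), yet of 22 contractile genes 3 rose and 7 fell, and *TAGLN* fell by 0.84. Of 10 keratins 3 rose and 2 fell, with *KRT18* at 334 and 391 CPM in DMSO and 160.2 and 172 CPM in nutlin (−1.13). Of 27 cadherin and junction genes 5 rose and 6 fell. *CDH2*, N-cadherin, fell by 1.28, *F11R*, a tight junction protein, rose by 1.37 and *JUP* by 1.15. Of 10 transition factors *SNAI1* fell by 1.66 and *SNAI2* rose by 0.68, with 2 raised and 3 lowered in all.

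Genes of other tissues were also among the raised. Of 33 tested synaptic and neuronal genes 12 rose and 5 fell. *UNC13A*, a factor that primes synaptic vesicles, had 7 and 9 counts in DMSO and 3107 and 5102 in nutlin (from 0.188 and 0.124 to 103 and 79.6 CPM). *UNC13B*, its relative, had 31.1 and 27.5 CPM in DMSO and 109 and 102 CPM in nutlin (1.85) and *SHANK2*, a synaptic scaffold, rose by 1.91. Potassium channels rose in 8 of 20 cases and fell in 6, and sodium and calcium channels rose in 5 of 30 and fell in 6. Of 12 tested thyroid genes 5 rose and 2 fell, but the raised ones stayed at low levels. *TG*, the thyroglobulin precursor of thyroid hormone, had 0.161 and 0.303 CPM in DMSO and 2.31 and 2.42 CPM in nutlin (3.23). *SLC5A5*, the iodide transporter, had 0 counts in both DMSO libraries and 4 and 16 in nutlin. *HHEX*, a thyroid transcription factor, fell by 1.94.

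Long noncoding RNAs rose in 9 of 25 tested cases and fell in 5, with a median of 0.561. *NEAT1*, the scaffold of paraspeckles, had 124 and 81.1 CPM in DMSO and 364 and 278 CPM in nutlin (1.65 ± 0.23, adjusted p = 0.000279), *LINC01021* had 1.29 and 0.592 CPM in DMSO and 13.8 and 12.7 CPM in nutlin (3.94), and *PVT1* and *MIR22HG* rose by 1.40 and 1.61. *SNHG1*, a host of small nucleolar RNAs, had 53.2 and 53 CPM in DMSO and 15.4 and 16.1 CPM in nutlin (−1.75). *MALAT1* was not called (0.50, with 0.809 and a call when DMSO replicate 1 was left out).

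Many of the largest changes lay in genes that no list held. The lists leave out some known p53 targets, *PRODH* among them, and the other genes named here were not sorted by this. Among genes with at least 10 counts in every DMSO library, the largest increases among genes in no list were those of *SULF2*, an extracellular sulfatase that edits heparan sulfate (1.58 and 1.42 CPM in DMSO and 79.2 and 73.7 CPM in nutlin, 5.68 ± 0.10, adjusted p = 6.82e-09), *NEURL2* (5.45), *PLEKHG1* (5.22), *HMCN2* (5.22), *PRODH*, a proline oxidase known as a p53 target (5.21), *WDR63* (5.18), *RRAD*, a small GTPase (1.13 and 1.54 CPM in DMSO and 48.8 and 49.7 CPM in nutlin, 5.16) and *PADI4*, a peptidylarginine deiminase (1.1 and 1.61 CPM in DMSO and 48.9 and 45.6 CPM in nutlin, 5.06). *GREB1* rose by 4.93, *TNFRSF14*, the receptor HVEM, by 4.45, and *ANK1*, an ankyrin of the membrane skeleton, by 4.34. *CEACAM1*, an adhesion molecule chosen after its values were seen, had 0.134 and 0.234 CPM in DMSO and 50.2 and 46.2 CPM in nutlin (7.90). Of the genes raised to at least 5 CPM from under 10 counts in every DMSO library there were 8. *TREM2*, a receptor of myeloid cells, had 1 and 0 counts in DMSO and 329 and 694 in nutlin. Leukocyte markers moved both ways, with 3 raised and 2 lowered of 6 tested. *CD14* and *CSF1R* fell (−1.77 and −1.79, both under 1 CPM), whereas *CD68* shared with *TREM2* in the higher count share of this list. *KANK3* reached 17.2 and 17.2 CPM, *CDH10*, a cadherin, 12.9 and 14.5 CPM, *KIAA1751* 13.1 and 10.6 CPM and *FAM13C* 7.44 and 7.57 CPM.

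Among abundant genes, *AHNAK2*, a very long scaffold protein gene, had 297 and 167 CPM in DMSO and 2199 and 1594 CPM in nutlin (3.03 ± 0.37), a rise far larger than the difference between libraries 1 and 3. *GPC1*, a cell surface proteoglycan, had 53.6 and 53.2 CPM in DMSO and 467 and 455 CPM in nutlin (3.11), *DGKA*, a lipid kinase, 30.3 and 34.6 CPM in DMSO and 287 and 286 CPM in nutlin (3.14), and *CES2*, a carboxylesterase, 47.7 and 46.5 CPM in DMSO and 358 and 344 CPM in nutlin (2.90). On the lowered side, *FAM111B*, a protease of unclear role, had 36.6 and 35.6 CPM in DMSO and 0.231 and 0.297 CPM in nutlin (−7.03) and *ZNF367*, a zinc finger factor, fell by 5.68. *TOP2A*, the topoisomerase of chromosome condensation, had 478 and 406 CPM in DMSO and 61.3 and 57.8 CPM in nutlin (−2.89), and the histone variants *H2AFX* and *H2AFZ*, whose mRNAs are polyadenylated, had 269.9 and 336 CPM in DMSO and 32.7 and 35.4 CPM in nutlin (−3.15) and 353 and 408 CPM in DMSO and 82.4 and 89.5 CPM in nutlin (−2.14). *AHNAK2*, *GPC1*, *DGKA*, *CES2*, *FAM111B*, *TOP2A*, *H2AFX* and *H2AFZ* were chosen after their values were seen.

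Some called genes lay side by side along the chromosomes, which is given as a description with no test. Over the 13509 genes with a position in the GENCODE annotation of GRCh37, the next tested gene was raised for 21.9% of raised genes, against 17.5% of these genes raised in all, and the next was lowered for 20.3% of lowered genes, against 18.6%. There were 517 raised and 508 lowered neighbouring pairs, of which 419 and 404 did not overlap. The loci that follow were chosen after their values were seen. On chromosome 22, *APOBEC3C* to *APOBEC3H* (39410262 to 39500072) were 5 raised neighbours of the cytidine deaminase family, with *APOBEC3C* at 57.4 and 59.3 CPM in DMSO and 312 and 296 CPM in nutlin (2.38), *APOBEC3F* up by 0.90 and *APOBEC3G* by 0.79. *APOBEC3B* of the same cluster was not called (−0.09). These genes are alike in sequence, so reads that fit several of them could be lost or given to the wrong gene. On chromosome 1, *FLG-AS1* to *S100A6* (152140601 to 153508720), epidermal genes among them, were 7 raised neighbours among the genes tested. They do not all lie close together, with 449901 bases between *FLG* and *LCE1F* and 721491 between *LCE1B* and *S100A6*. *FLG*, filaggrin of the skin barrier, had 550.2 and 288 CPM in DMSO and 1606 and 1254 CPM in nutlin (1.77), with DMSO libraries that differ but lie below both nutlin libraries. The cornified envelope genes *LCE1F*, *LCE1E*, *LCE1C* and *LCE1B* had 0 counts in both DMSO libraries and 78 and 140, 46 and 88, 21 and 32, and 63 and 98 counts in nutlin. Whether reads fit several of these related genes was not tested.

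At other loci raised genes lie within or just downstream of a raised neighbour. On chromosome 20, *NEURL2* (44517264 to 44519847) and *SPATA25* (44515130 to 44516261) lie downstream of *PLTP* (44527260 to 44540794) on the same strand, and all 3 rose (5.45, 5.65 and 4.25). *MIR3189* (4.59) lies within *GDF15* on the same strand of chromosome 19, and *GRIN2C* (5.62, under 5 CPM in both nutlin libraries) begins 992 bases past *FDXR* on the same strand of chromosome 17. Whether transcripts of *PLTP*, *FDXR* and *GDF15* contribute to the counts of these neighbours was not tested. On chromosome 10, *ACTA2* and *FAS* overlap at their 5′ ends on opposite strands, and the counting used strand. *ACTA2* rose by 3.84 and *FAS* by 2.53. On chromosome 9 neighbours moved apart, with *CDKN2B* (22002902 to 22009304) raised by 2.88 and *MTAP* (21802635 to 21937650) and *CDKN2B-AS1* lowered (−1.12 and −0.97).

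K1 cells had the same dose and time of nutlin, and many genes that changed in TPC1 changed less there. With the 16 libraries of both lines in 1 model and 16738 genes tested, the difference between the nutlin effects in TPC1 and K1 was positive for 1755 genes (10.5%) and negative for 1462 (8.73%) (edgeR quasi-likelihood test of the difference, adjusted p under 0.05 and more than 1.5-fold). Scaled by total counts alone, these were 1520 and 1686. Of the 2671 genes raised in TPC1, 1534 rose by more there than in K1 and 5 by less, and for 1132 the difference was not called. The median effect of these 2671 genes was 1.15 in TPC1 and 0.283 in K1. Of the 2752 lowered, 1339 fell further in TPC1 and 1 less far, and their median was −1.04 in TPC1 and −0.368 in K1. Since genes were taken by their call in TPC1, both these counts and the medians favour that line by construction. K1 was grown in another medium, so line and medium cannot be told apart.

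Mitotic genes fell further in TPC1 than in K1. Mitotic kinases and cyclins had a median of −3.97 in TPC1 and −1.08 in K1, and 33 of 34 fell further in TPC1. Kinesins had −3.64 and −1.12, with 35 of 38 further down in TPC1. Licensing genes had −2.39 and −1.49, with 21 of 29 further down. *PLK1* fell by 5.50 in TPC1 and by 1.0 in K1, a difference of −4.50 ± 0.24 (adjusted p = 1.37e-09), and *HJURP* by 6.52 and by 1.41 (−5.11 ± 0.22). *MCM2* fell by 2.77 and by 2.12, a difference of −0.65 ± 0.14. *MYC* had −1.33 and −1.0, a difference that was not called (−0.33 ± 0.19, adjusted p = 0.203). On the raised side, 28 of 55 lysosomal genes rose more in TPC1, and the list had a median of 0.842 there and 0.165 in K1. *CTSD* had 1.35 in TPC1 and 0.30 in K1 (1.05 ± 0.11). Cytosolic heat shock chaperones had −0.662 and 0.0153, with 9 of 20 lower in TPC1. *UNC13A*, which starts near 0 in TPC1, had 9.28 in TPC1 and 0.48 in K1 (8.80 ± 0.32). *CDKN1A* had 5.64 and 3.16 (2.48 ± 0.15), *MDM2* 5.0 and 3.04 (1.95 ± 0.12), and *BTG2* 4.86 and 3.99 (0.87 ± 0.14).

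**Figure D5:**
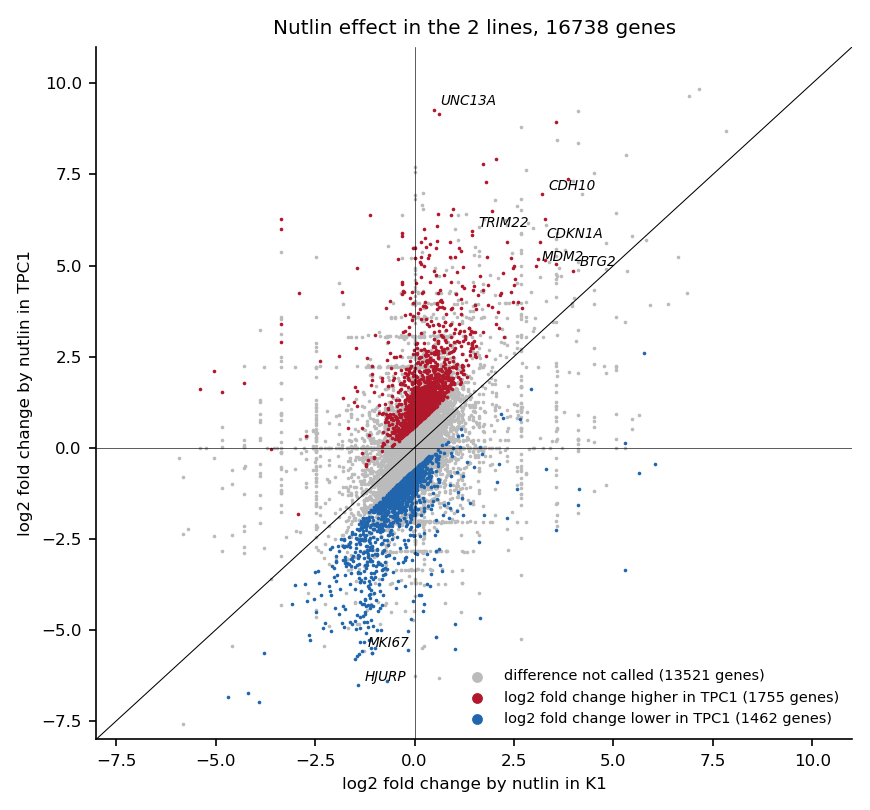
Each point is 1 of 16738 genes, with the log2 fold change by nutlin in K1 on the x axis and in TPC1 on the y axis, and the diagonal marks equal effects. Red marks 1755 genes whose value was higher and blue 1462 whose value was lower in TPC1, mostly rises and falls that were steeper than in K1. Stripes of grey points are genes with few counts, and 1 gene lies outside the axes.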

How the data were processed

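Total poly(A) RNA of TPC1 and K1 cultures was sequenced by the authors as single-end stranded libraries. The submitters' processing notes name TopHat2 2.0.13, Bowtie2 2.2.3.0, SAMtools 1.3.1, Picard 1.129, FastQC 0.11.5 and HTSeq 0.6.1, with GRCh37. The deposited values are raw counts per gene, one column per library. From these, edgeR 4.0.16 (R 4.3.3) computed TMM factors and the quasi-likelihood test in a joint fit of the 8 TPC1 libraries, for genes over 0.1 CPM in at least 2 of them. The difference from K1 was an interaction in a fit of all 16. A gene was called raised or lowered at a Benjamini-Hochberg adjusted p under 0.05 and a fold change above 1.5. The TPC1 fit left 4 residual degrees of freedom for each gene. The test also drew on the spread pooled over all genes, so the small p values rest on both. On simulated counts for 15273 genes in the TPC1 comparison, 100% of 200 changed genes were recovered with 4 false calls. The changes were of 2-fold or more and were set only in genes of higher counts. All genes shared the common dispersion of 0.00828. The simulation therefore checks that the fit runs correctly and cannot give the error rates for smaller changes, low counts or genes of larger spread.

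Genes and lists were chosen with earlier results of these data known, and so support nothing by themselves. Named genes were the key genes of each list, whatever their values, and up to 5 raised and 5 lowered members per list with the largest changes, whose higher group averaged 5 CPM or more and did not overlap the other. The rule also took the 20 largest changes in each direction with at least 10 counts in every library of the lower group, the 10 highest under that count, and the 8 largest differences from K1 in each direction. Genes named outside this rule, such as exceptions in a list, were chosen after their values were seen. Promoters and positions come from GRCh37 with GENCODE 44 mapped to it, and promoters of chromosome 8 were left out. Alternatives were other normalisations, other filters, DESeq2 1.42.0, a fit of 2 groups, a replicate block, a higher fold threshold and leaving out each library. Some listed genes are not reported here by name.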

Additional observations from a re-analysis of the deposited data

Results flagged for a closer look

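The nutlin effect differed between TPC1 and K1 by the edgeR test of the difference itself, with 1755 genes higher and 1462 lower in TPC1. The balance turned to 1520 and 1686 with total counts alone and to 1557 and 1673 with edgeR's own filter. Among genes called in TPC1 that averaged 5 CPM or more in some group of each line, the largest positive differences on the log2 scale were those of *UNC13A* (8.80), *TRIM22* (4.49), *PLEKHG1* (4.35), *CDH10* (3.77), *GREB1* (3.75), *C17orf103* (3.67), *GGT1* (3.37) and *NBEAP1* (3.31). The largest negative differences were those of *HJURP* (−5.11), *NEK2* (−4.57), *CENPA* (−4.56), *PLK1* (−4.50), *GTSE1* (−4.40), *NCAPH* (−4.30), *KIF18B* (−4.27) and *MKI67* (−4.26). *UNC13A*, *CDH10* and *NBEAP1* had under 10 counts in each TPC1 DMSO library.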

How the results depend on the processing

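The counts of raised and lowered genes were 2703 and 2715 with DESeq2 size factors, 2491 and 2891 with total counts alone, 2632 and 2717 with edgeR's own filter, 2685 and 2786 with no filter, 2529 and 2570 with the DESeq2 Wald test, and 2657 and 2746 with DMSO and nutlin fitted alone. Genes with a higher and a lower log2 fold change in TPC1 than in K1 were 1755 and 1462, but 1520 and 1686 with total counts alone and 1557 and 1673 with edgeR's own filter, so which direction holds more genes depends on these choices. They were 1660 and 1564 with DESeq2 size factors and 1591 and 1507 with the Wald test. With a fold change above 2, 1539 genes were raised and 1519 lowered, and the difference from K1 was called for 851 and 617 genes. Leaving out each library in turn, with the lone library assumed to vary like the other groups, gave 2385 to 2717 raised and 2565 to 2682 lowered genes, and 1555 to 1803 and 1354 to 1569 for the difference. Libraries with the same number deviated together, with a correlation of 0.461 for DMSO and nutlin and of 0.447 to 0.616 over the 6 pairs of TPC1 groups, a hint from the data, not the design. The labels do not say that a number marks a shared batch, and there are only 2 numbers. A replicate block gave 2810 raised and 2837 lowered genes, and 1861 and 1509 for the difference. Of 482 named genes tested, 447 were called and 396 were called under every alternative other than the higher fold threshold, which was not applied to single genes. The values that changed sign belonged to genes that were not called. Without DMSO replicate 3 these were *HBEGF* (0.138), *KRT8* (0.0264), *MDM4* (−0.125), *MMP1* (0.000492) and *RET* (0.092), and without nutlin replicate 1 *HBEGF* (0.101), *MDM4* (−0.0171), *MMP1* (0.0746) and *RET* (0.036). *NFKBIA* had −0.0568 without DMSO replicate 1. Over the libraries left out, the values reached −0.233 for *HBEGF*, −0.199 for *KRT8*, 0.241 for *MDM4*, −0.291 for *MMP1*, 0.173 for *NFKBIA* and −0.0869 for *RET* at the other end. The cause was not tested. With 2 libraries a group, changes in genes of few counts are the least precise.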
